A study of Mus musculus with 4 samples.

Results

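The Id family was followed in single basal cells of mouse epidermis through *Id1*, *Id2* and *Id3*, 3 of the 24378 gene rows in each count table. They were taken by symbol, with earlier results of these data known. The cells came from dorsal skin of female Ivl-CreERT2/R26-tdTomato mice, in which the *Ivl* (Involucrin) promoter drives a Cre recombinase that tamoxifen activates, so that cells with promoter activity turn on the red protein tdTomato. All mice carried both alleles and were injected i.p. with 10 μg of tamoxifen per g of body weight 2 days before they were killed at postnatal day 57, by the sample labels, while the methods of the study give a higher dose. Live CD49f+ LY6A+ CD34- cells, a gate for the basal interfollicular epidermis, were sorted into traced (Tom+) and non-traced (Tom-) cells and captured on separate Fluidigm C1 chips, 2 Tom+ and 2 Tom- libraries. The titles carry 2 number tags, each on 1 Tom+ and 1 Tom- library, which are called run 1 and run 2 here as names only, since the labels do not say whether a tag marks an animal, a day or something else. The labels do not tie libraries to animals, so p-values measure only the spread between these libraries, and sort cannot be told apart from chip.

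Id proteins are small helix-loop-helix proteins that lack the basic region with which related factors bind DNA. They pair with E proteins such as Tcf3, Tcf4 and Tcf12 and keep them from DNA, and are known for holding back differentiation in many lineages. Their genes are classic targets of bone morphogenetic protein (BMP) signalling through Smad1, Smad5 and Smad9.

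By GENCODE M21 on GRCm38, *Id1* (ENSMUSG00000042745.9) lies at chr2:152736251-152737410 on the plus strand, *Id2* (ENSMUSG00000020644.9) at chr12:25093799-25097140 on the minus strand, and *Id3* (ENSMUSG00000007872.3) at chr4:136143497-136145755 on the plus strand. All 3 are protein-coding. Because the libraries read the 5′ ends of transcripts, the 250 bases before the RefSeq start site on GRCm38.p6 are shown for *Id2* (chr12:25096093-25096342, minus strand) and *Id3* (chr4:136143572-136143821, plus strand), the 2 members matched in the promoter table used. Both stretches lie inside the GENCODE gene spans, which begin further upstream. Capitals mark GGCGCC, a letter pattern found in BMP-responsive elements, and CAGAC or its reverse complement GTCTG, the core to which Smad proteins bind.
Id2: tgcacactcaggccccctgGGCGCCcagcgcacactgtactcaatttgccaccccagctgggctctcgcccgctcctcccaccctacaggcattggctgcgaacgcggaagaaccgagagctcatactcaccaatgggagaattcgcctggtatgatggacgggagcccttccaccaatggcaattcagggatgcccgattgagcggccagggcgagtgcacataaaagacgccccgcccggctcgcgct
Id3: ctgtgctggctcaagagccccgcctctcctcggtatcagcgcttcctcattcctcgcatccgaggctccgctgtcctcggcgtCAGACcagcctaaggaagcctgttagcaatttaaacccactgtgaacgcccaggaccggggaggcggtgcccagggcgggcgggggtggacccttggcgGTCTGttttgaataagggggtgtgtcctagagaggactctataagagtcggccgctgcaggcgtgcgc
In the 300 bases searched on both strands, from 250 before to 50 after the start, the *Id2* promoter had 1 GGCGCC, which begins 231 bases before the start, and the *Id3* promoter had 2 matches to CAGAC, beginning 167 and 68 bases before it. The *Id2* window had 0 matches to CAGAC and the *Id3* window 0 to GGCGCC. The E-box to which E proteins bind, CANNTG, occurred 1 time in the *Id2* window, 196 bases before the start, and 0 times in that of *Id3*. Among 32851 promoters of this length, 11.9% held the BMP-type pattern, 49.6% the Smad core and 72.3% the E-box, so the last 2 are common, and a match is a run of letters and not a tested site.

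Of 384 wells, 161 had at least 2000 unique molecular identifiers (UMIs) on genes and were kept as cells, with 35 Tom+ and 20 Tom- cells in run 1 and 58 Tom+ and 48 Tom- cells in run 2. Kept cells of a library summed to between 81630 and 305407 UMIs, with medians per cell from 3225 to 4524.5, and the libraries shared 0 well names. The 9 basal markers summed to between 289 and 450 UMIs per 10000 in every library. Transcripts of tdTomato were present in 16 and 29 traced cells of runs 1 and 2, against 0 and 3 non-traced cells. The 6 early differentiation markers summed to 172 and 175 UMIs per 10000 in Tom+ cells against 43.9 and 21.8 in Tom- cells. Cells with at least 6 *Krt10* UMIs of 2000 thinned UMIs are called *Krt10*-high. They numbered 25 and 37 in the Tom+ libraries and 3 and 3 in the Tom- libraries, and values from the latter rest on those few cells.

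Transcripts of the Id family were sparse but widely spread, with UMIs of at least 1 member in 108 of the 161 cells (67.1%). *Id1* was counted 167 times in 66 cells, *Id2* 40 times in 19 cells and *Id3* 255 times in 75 cells. Most cells that held a member held few copies of it, with at least 5 UMIs in 9 cells for *Id1*, 2 for *Id2* and 17 for *Id3*. The relative *Id4*, which was not among the members, had 10 UMIs in 8 cells. UMI counts are not corrected for transcript length, so levels are compared only within a gene.

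**Figure D1:**
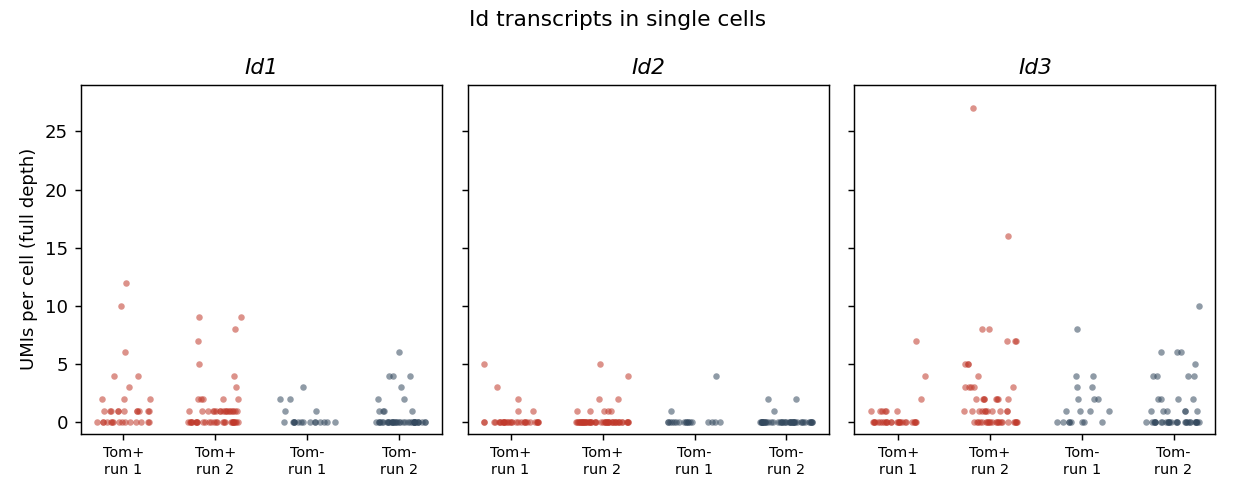
UMIs of *Id1*, *Id2* and *Id3* per cell at full depth in the 4 libraries, 1 point per cell and random sideways scatter. Most points lie at 0 or 1, and the highest cells hold 12 UMIs of *Id1*, 5 of *Id2* and 27 of *Id3*.

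*Id1*, which is known to keep keratinocytes in an undifferentiated state in culture, was higher in both Tom+ than in both Tom- libraries, but did not pass the adjusted threshold. It reached 3.56 UMIs per 10000 gene UMIs (95% Poisson interval 2.69 to 4.62, 56 UMIs) in Tom+ run 1 and 2.39 (1.87 to 3.01, 73 UMIs) in Tom+ run 2. In Tom- cells it reached 1.10 (0.504 to 2.09, 9 UMIs) in run 1 and 1.57 (1.05 to 2.26, 29 UMIs) in run 2. The 2 sorts did not overlap in level, although the counting intervals of Tom+ run 2 met those of both Tom- libraries. These intervals, like those of the shares below, cover counting error only. In the summed counts the log2 fold change of *Id1* was 1.02 (SE 0.39, 95% interval 0.21 to 1.82), with an unadjusted p of 0.0155 and an adjusted p of 0.310 by the edgeR quasi-likelihood test with Benjamini-Hochberg adjustment over 3070 genes. Of the 3 members, 0 passed this test, 1 had an unadjusted p under 0.05, and 0 of the 2 for which DESeq2 gave an adjusted p passed there. Over all genes tested, 38 passed, or 1.24%, with 0.847% higher and 0.391% lower in Tom+ cells. In bulk sums, fewer cells with a transcript and fewer transcripts per cell cannot be told apart, so the cells were also counted.

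After each cell was thinned to 2000 UMIs, *Id1* was present in 25.7% of cells (95% Clopper-Pearson interval 12.5% to 43.3%) in Tom+ run 1 and in 41.4% (28.6% to 55.1%) in Tom+ run 2. The Tom- shares were 10.0% (1.23% to 31.7%) and 16.7% (7.48% to 30.2%). Both Tom+ libraries again lay above both Tom- libraries, with mean shares 20.2 percentage points apart. The difference was 12.4 points without Tom+ run 2, ranged from 9.57 to 24.1 over 20 other draws of the thinning, and was 4.87 when at least 2 UMIs were required. The exact two-sided permutation test over the 4 libraries gave p = 0.333, the smallest value that 2 against 2 libraries allow. At full depth the *Id1* shares were 57.1% and 51.7% for Tom+ cells, against 25.0% and 22.9% for Tom- cells. No cell population known to lack Id transcripts was captured. The 54 wells with fewer than 2000 UMIs, but not 0, held 4.66 *Id1* UMIs per 10000, from 14 UMIs in 7 wells. This value lay above that of every library of kept cells, but no interval was computed for it. How far free RNA contributed to the shares was not tested.

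*Id3* differed more between the 2 Tom+ libraries than between the sorts. Its level was 1.21 UMIs per 10000 (0.727 to 1.89, 19 UMIs) in Tom+ run 1 and 4.62 (3.89 to 5.44, 141 UMIs) in Tom+ run 2, a ratio of 3.82. The Tom- libraries lay between these, at 3.92 (2.68 to 5.53, 32 UMIs) in run 1 and 3.41 (2.62 to 4.37, 63 UMIs) in run 2. Tom+ run 1 therefore stood below the other 3 libraries, with a counting interval that met none of theirs. The summed infundibulum and bulge markers were also lowest there. The 4 sebaceous markers were instead highest there, at 2.35 UMIs per 10000 against 1.51 in Tom+ run 2 and 1.72 and 0.867 in Tom-. *Scd1* alone gave 2.03 of the Tom+ run 1 sum, *Elovl3* and *Cidea* were at 0, and 0 cells held at least 3 sebaceous markers. The 5 infundibulum markers, of which 0 were without UMIs, summed to 4.07 and 16.3 UMIs per 10000 in Tom+ runs 1 and 2, against 8.70 and 7.58 in Tom-. The 6 bulge markers summed to 0.509 and 1.96 in Tom+ and 3.31 and 2.22 in Tom-, with the defining *Cd34* and *Lgr5* at 0. The 3 cells with at least 3 infundibulum markers held 1 *Id3* UMI, the 2 with at least 3 bulge markers held 0, and the part of these cell types in the *Id3* difference was not otherwise tested. A single cell carried 27 of the 141 UMIs in Tom+ run 2 (19.1%), and without it the level was 3.78. The log2 fold change between the sorts was -0.27 (SE 0.43, 95% interval -1.16 to 0.62, edgeR adjusted p = 0.956). Without Tom+ run 1 it was 0.37 (adjusted p = 0.998) and without Tom+ run 2 it was -1.63 (adjusted p = 0.127), so the direction rested on which Tom+ library was kept.

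The share of thinned cells with *Id3* was also lowest in Tom+ run 1. It was 17.1% (6.56% to 33.6%) in Tom+ run 1, against 48.3% (35.0% to 61.8%) in Tom+ run 2. Tom- cells showed 50.0% (27.2% to 72.8%) in run 1 and 27.1% (15.3% to 41.8%) in run 2. The Tom+ minus Tom- difference was -32.9 percentage points in run 1 and 21.2 in run 2, with a mean of -5.83 (exact two-sided permutation p = 0.667).

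*Id2*, a member expressed in lymphoid as well as epithelial cells, was too rare to separate the sorts. It had 0.763 UMIs per 10000 (0.394 to 1.33, 12 UMIs) and 0.589 (0.349 to 0.931, 18 UMIs) in Tom+ runs 1 and 2. The Tom- levels were 0.613 (0.199 to 1.43, 5 UMIs) and 0.271 (0.0880 to 0.632, 5 UMIs). The sorts overlapped, with a log2 fold change of 0.69 (SE 0.71, 95% interval -0.78 to 2.17, edgeR adjusted p = 0.910). Thinned shares of Tom+ cells were 8.57% and 12.1%, against 10.0% and 6.25% of Tom- cells, a mean difference of 2.20 points (exact two-sided permutation p = 0.667).

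Part of the *Id2* signal came from cells with T-cell transcripts, although the gate was set for basal keratinocytes. Of 9 T-cell markers in the tables, 0 were without any UMI, and their sum ranged from 0.127 to 2.42 UMIs per 10000 in Tom+ and from 0 to 1.90 in Tom- libraries. The 3 cells with at least 3 such markers held 7 of the 40 *Id2* UMIs, 4 of the 167 *Id1* UMIs and 2 of the 255 *Id3* UMIs. All 7 *Id2* UMIs lay in 2 *Krt10*-high cells of Tom+ run 2, which held 5 and 2 of them, 8 and 7 T-cell markers, and 15 and 5 UMIs of *Krt5*. Without these cells the *Id2* level of Tom+ run 2 was 0.376. When the 10 cells with 3 or more markers of any other cell type were left out, the log2 fold change of *Id2* between the sorts was 0.42 (edgeR adjusted p = 0.975). The 2 cells with at least 3 Langerhans markers and the 2 with at least 3 bulge markers held 0 *Id2* UMIs.

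**Figure D2:**
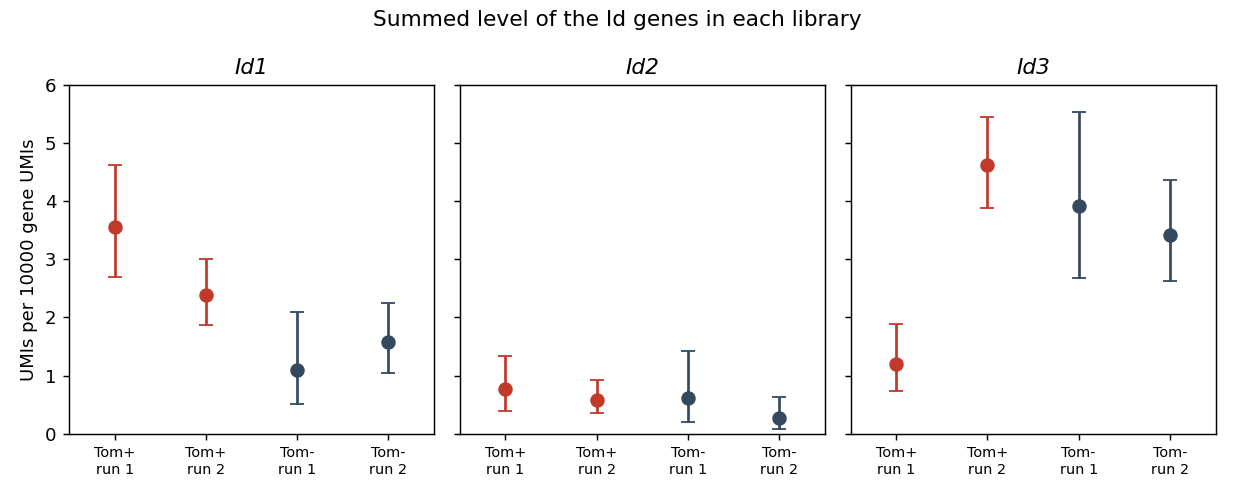
Level of *Id1*, *Id2* and *Id3* in UMIs per 10000 gene UMIs over all cells kept in a library, with 95% Poisson intervals (red Tom+, grey-blue Tom-). *Id1* lies higher in both Tom+ libraries, at 3.56 and 2.39 against 1.10 and 1.57, while *Id3* in Tom+ run 1 (1.21) lies below the other 3 libraries.

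Krt10 is the keratin that marks commitment to differentiation, and its transcript divides the cells of every library into 2 classes. The level of *Id1* was above that of *Krt10*-low cells in the *Krt10*-high cells of each of the 4 libraries. In Tom+ cells its level was 3.05 UMIs per 10000 in *Krt10*-low and 3.81 in *Krt10*-high cells of run 1, and 1.46 and 2.82 in run 2. In Tom- cells the corresponding levels were 0.926 and 1.78 in run 1 and 1.34 and 4.69 in run 2. In Tom- run 1 the order rested on 1 of the 3 *Krt10*-high cells, without which their level was 0.758. In Tom+ run 1 both class levels leaned on 1 cell. The *Krt10*-high level was 2.81 without a cell that held 12 of its 40 UMIs, below the 3.05 of *Krt10*-low cells. The *Krt10*-low level was 1.21 without its own top cell. With the library as a block the log2 fold change was 0.81 (SE 0.39, 95% interval 0.04 to 1.59), with an unadjusted p of 0.0406 and an edgeR adjusted p of 0.274 over 1905 genes. Of the 3 members, 0 passed the adjusted threshold in this comparison, 1 had an unadjusted p under 0.05 and 0 passed with DESeq2, where edgeR called 6.4% of all genes tested, 3.2% in each direction. The share of thinned cells with *Id1* was higher in *Krt10*-high cells by 14.4 ± 16.6 percentage points (SD, n = 4 libraries). It ranged from -3.87 to 28.1 points over 20 other draws and was 28.0 at full depth. In Tom+ run 2 the thinned difference was -9.78 points, whereas at full depth 54.1% of *Krt10*-high and 47.6% of *Krt10*-low cells held *Id1*.

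The level of *Id3* had no common direction by *Krt10* class. Among Tom+ cells its level was 2.29 UMIs per 10000 in *Krt10*-low and 0.667 in *Krt10*-high cells of run 1, and 4.80 and 4.53 in run 2. Among Tom- cells the level was 3.55 and 5.35 in run 1, and 3.32 and 4.69 in run 2. It was thus lower in the *Krt10*-high cells of both Tom+ libraries and higher in those of both Tom- libraries, but the latter rested on 1 cell each. These cells lay exactly at the cut-off of 6 *Krt10* UMIs and held 8 of 9 *Id3* UMIs in run 1 and 4 of 6 in run 2. Without them the *Krt10*-high levels were 1.29 and 2.07, below those of *Krt10*-low cells. The test of that difference between the sorts gave a log2 value of -0.76 (SE 0.69, edgeR adjusted p = 0.928), and over all cells the log2 fold change of *Id3* between the classes was -0.23 (SE 0.35, 95% interval -0.94 to 0.47, adjusted p = 0.832). With a cut-off of at least 12 *Krt10* UMIs it was -1.41 (adjusted p = 0.150). The share of thinned cells with *Id3* differed by 16.6 ± 19.6 points (SD, n = 4), a value that depended on the random thinning, since 20 other draws ranged from -8.92 to 15.2.

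*Id2* in *Krt10*-low and *Krt10*-high cells was at 1.72 and 0.286 UMIs per 10000 in Tom+ run 1 and at 0.730 and 0.525 in Tom+ run 2. In Tom- run 1 it was at 0.154 and 2.38, the latter from 1 cell. In Tom- run 2 it was at 0.291 in *Krt10*-low cells, with 0 UMIs among 12790 in the 3 *Krt10*-high cells. The log2 fold change was -0.40 (SE 0.97, 95% interval -2.34 to 1.54, edgeR adjusted p = 0.906). Without the cells that had markers of another type it was -0.97 (adjusted p = 0.700).

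Because Tom+ cells were mostly *Krt10*-high, the sorts were also compared among *Krt10*-low cells alone. This class included cells with 1 to 5 *Krt10* UMIs, which were 2 of 10 and 19 of 21 in Tom+ runs 1 and 2. In Tom- they were 8 of 17 and 8 of 45. Of 5 early differentiation markers tested here, 3 were higher in Tom+ cells, *Krt1*, *Krtdap* and *Krt10* itself (log2 fold change 1.52, edgeR adjusted p = 0.0493). The sorts were thus not matched for *Krt10* within the class. *Id1* in *Krt10*-low cells stood at 3.05 and 1.46 UMIs per 10000 in Tom+ against 0.926 and 1.34 in Tom- libraries, still without overlap. A single cell held 62.5% of the *Id1* UMIs of the *Krt10*-low cells in Tom+ run 1, and without it their level was 1.21, within the range of the Tom- libraries. The log2 fold change was 0.79 (SE 0.55, 95% interval -0.33 to 1.91, edgeR adjusted p = 0.983). *Id3* differed by 0.06 (SE 0.42, 95% interval -0.79 to 0.91, adjusted p = 0.994), and *Id2* fell below the count filter. Of the 2 members tested 0 passed, 0 had an unadjusted p under 0.05 and 0 passed with DESeq2, beside 0.303% of all genes called by edgeR. The test of whether the *Krt10* class effect differed between the sorts called 0.262% of all genes and 0 of the 3 members, with 0 at an unadjusted p under 0.05, and gave log2 values of -0.50 (SE 0.83) for *Id1* and -3.11 (SE 2.14) for *Id2*.

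**Figure D3:**
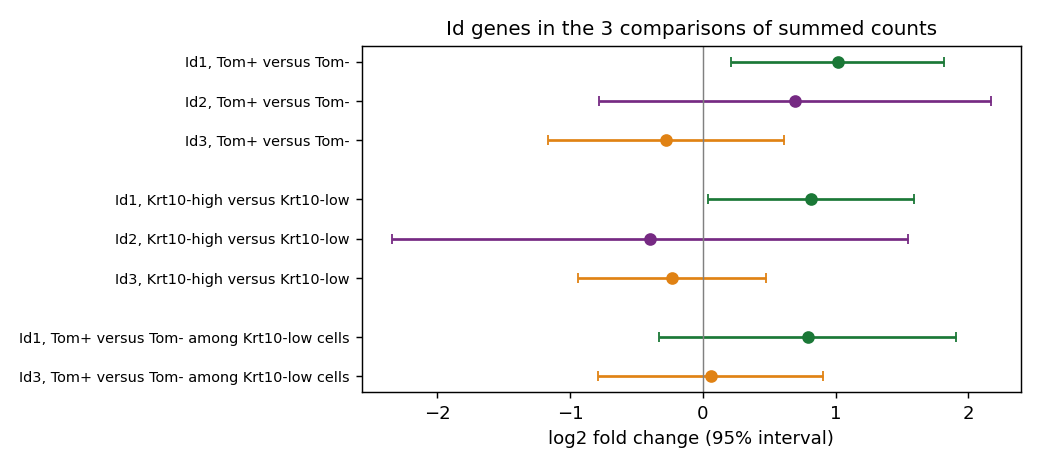
Log2 fold changes of the Id genes with 95% intervals from the edgeR quasi-likelihood fits for Tom+ versus Tom- cells, *Krt10*-high versus *Krt10*-low cells, and Tom+ versus Tom- among *Krt10*-low cells. The intervals of *Id1* lie above 0 in the first comparison (0.21 to 1.82) and in the second (0.04 to 1.59), before adjustment for the number of genes, and all others include 0.

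**Figure D4:**
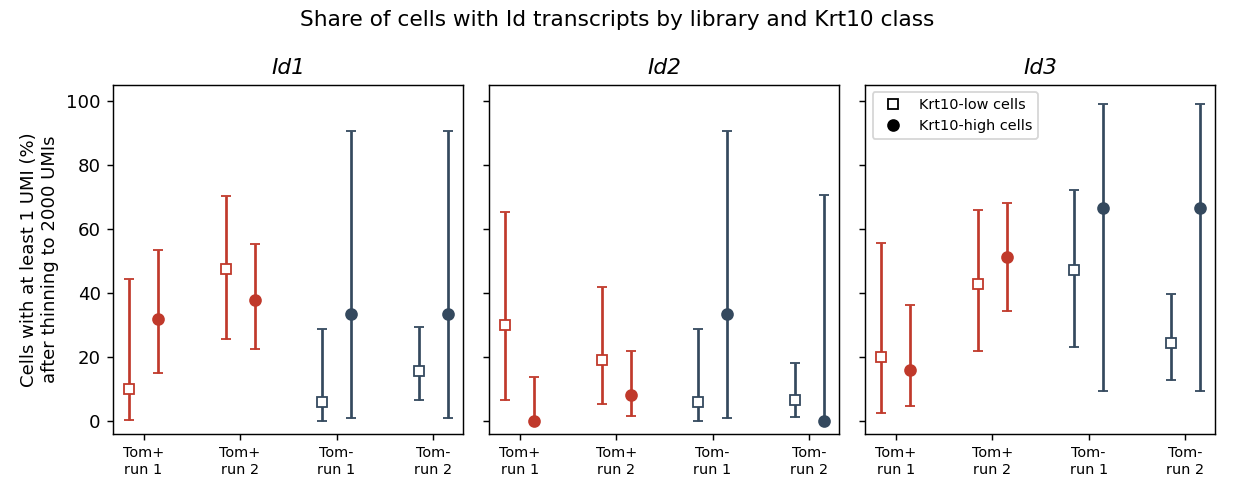
Share of cells with at least 1 UMI of *Id1*, *Id2* or *Id3* after thinning to 2000 UMIs per cell, by library and *Krt10* class (open squares low, filled circles high, 95% Clopper-Pearson intervals, red Tom+, grey-blue Tom-). The intervals of the *Krt10*-high Tom- cells are wide because each of these libraries has 3 such cells.

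In thinned counts, the number of cells that held 2 of the members was close to what their separate shares would give. After thinning, *Id1* and *Id3* were both present in 17 cells, where 16.3 would follow from independence within each library. Their mean Spearman rank correlation was 0.048 ± 0.136 (SD, n = 4 libraries). *Id1* and *Id2* shared 4 cells, against 4.37 under independence, with a rank correlation of -0.0068 ± 0.264. *Id2* and *Id3* shared 4 cells, against 5.71, with a rank correlation of -0.036 ± 0.109. These are descriptions over cells that share a chip, and counts this sparse can hide a relation. At full depth, where cells with more UMIs hold more of every gene, *Id1* and *Id3* shared 35 cells against 30.6. *Id1* and *Id2* shared 12 against 8.70 there, and *Id2* and *Id3* 9 against 9.10. By combination at full depth, 53 cells held none of the members, 35 only *Id3*, 23 only *Id1*, 2 only *Id2*, 31 *Id1* with *Id3*, 8 *Id1* with *Id2*, 5 *Id2* with *Id3*, and 4 all of them.

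The genes whose thinned counts ran most alike with each member were taken by their mean rank correlation over the 4 libraries, among the 1060 or 1061 genes with at least 100 UMIs that could be compared. For *Id1* they were *Scel* (0.301), which encodes the cornified envelope precursor sciellin, the ion transporter gene *Slc12a2* (0.272) and the ribosomal protein gene *Rpl13a* (0.263). For *Id2* they were the matricellular protein gene *Smoc2* (0.363), the lysosomal protease gene *Ctsd* (0.315) and the vesicle transport gene *Rab11b* (0.283). For *Id3* they were *Tnfaip3* (0.361), the actin gene *Actg1* (0.303) and *Nfkbia* (0.290). *Tnfaip3* and *Nfkbia* encode feedback inhibitors of NF-κB. The choice required a coefficient above 0 in every library. It also took the highest of 1060 or 1061 coefficients over few cells, which yields positive values without any relation. Whether these coefficients exceed that was not tested. The coefficient of *Id3* with *Tnfaip3* ranged from 0.128 in Tom- run 1 to 0.575 in Tom- run 2, and that of *Id1* with *Scel* from 0.016 in Tom+ run 2 to 0.617 in Tom- run 2. That of *Id2* with *Smoc2* ranged from 0.051 in Tom- run 2 to 0.723 in Tom+ run 1. The *Id2* coefficients rested on few cells, since thinned *Id2* was present in 3 and 7 Tom+ cells and 2 and 3 Tom- cells of runs 1 and 2. Of these 9 genes *Smoc2* passed the test between the sorts (log2 fold change -1.60, SE 0.38, edgeR adjusted p = 0.0399) and between the *Krt10* classes (-2.11, SE 0.52, adjusted p = 0.00425), lower in Tom+ and in *Krt10*-high cells. Over all genes tested, 1.24% passed between the sorts and 6.4% between the classes.

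Immediate early genes, which many stimuli, cell dissociation among them, switch on within minutes, were abundant, and their 14 listed members summed to 146 (run 1) and 150 (run 2) UMIs per 10000 in Tom+ cells, against 178 and 188 in Tom- cells. In thinned cells with *Id3* the sum was 47.0 UMIs of 2000, against 23.6 in cells without it, in Tom+ run 1. The values were 33.8 against 25.0 in Tom+ run 2, 38.5 against 32.7 in Tom- run 1, and 41.8 against 35.3 in Tom- run 2. Cells with *Id3* were higher in 4 of 4 libraries, by 11.1 ± 8.31 UMIs (SD, n = 4), but in all 4 libraries at once in only 10 of 20 other draws of the thinning, and in 3 of 4 libraries at full depth. For *Id1* the difference was 5.08 ± 8.33 UMIs, higher in 3 of 4 libraries, with a mean of 2.85 over 20 other draws and a range from -1.86 to 6.95. For *Id2* it was -1.59 ± 16.0 and turned to 5.87 at full depth. The list itself had 14 of 14 genes tested between the sorts, with a median log2 fold change of -0.37 beside -0.006 over all genes tested. In Tom+ cells 1 was lower (*Ier3*, -1.48, SE 0.37, edgeR adjusted p = 0.0469) and 0 were higher, beside 0.391% of all genes lower and 0.847% higher. Between the *Krt10* classes *Ier3* was again the 1 gene called lower (-2.01, SE 0.46, adjusted p = 0.00203) and 0 genes of the list were higher. Of all genes tested there, 3.2% were called in each direction. The median of the list between the classes was -0.20 beside -0.056 over all genes. Whether dissociation contributed to Id transcripts was not tested.

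The BMP pathway upstream of the Id genes was detected at low counts. Of 9 ligands 1 was tested between the sorts, *Bmp4*, with 53 UMIs and a log2 fold change of -0.44 (SE 0.55, edgeR adjusted p = 0.945). Of 9 receptors 3 were tested and 0 passed in either direction. The type I receptor gene *Bmpr1a* had 44 UMIs and a change of 0.02 (SE 0.64), the type II receptor gene *Bmpr2* had 111 UMIs and a change of 0.10 (SE 0.41), and the activin receptor gene *Acvr2a* had 39 UMIs and a change of 0.26 (SE 0.72). Their adjusted p-values ranged from 0.986 to 0.999. The other receptors were *Tgfbr2* with 27 UMIs, *Tgfbr1* with 18, *Acvr1* with 10, *Acvr1b* with 9, *Acvr2b* with 5 and *Bmpr1b* with 0. Of 6 Smad genes 3 were tested and 0 passed. *Smad1* and *Smad5*, which carry the BMP signal, had changes of 0.96 (SE 0.55, adjusted p = 0.631) and -0.23 (SE 0.65, adjusted p = 0.987), and their common partner *Smad4* had 0.13 (SE 0.71, adjusted p = 0.988). Of 13 inhibitors of the pathway 3 were tested and 0 passed, with a median of -0.81. The BMP antagonist gene *Sostdc1* had 109 UMIs and a change of -1.60 (SE 0.46, unadjusted p = 0.00218, adjusted p = 0.105). Between the *Krt10* classes 0 of 9 ligands, 1 of 9 receptors, 1 of 6 Smad genes and 2 of 13 inhibitors were tested, and 0 of them passed. The values for *Bmpr2* and *Smad1* there were -0.71 (SE 0.52) and 0.62 (SE 0.75).

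The E protein genes, whose products Id proteins bind, were near the limit of detection. *Tcf3* had 9 UMIs in all cells, *Tcf4* 33 and *Tcf12* 23, and 0 of the 3 passed the count filter of any comparison. Summed, they lay between 0.827 and 1.10 UMIs per 10000 in the 4 libraries. Of 22 other helix-loop-helix genes 7 were tested between the sorts and 0 passed, with a median of 0.35. Between the *Krt10* classes 5 were tested and 1 was lower, *Bhlhe40*, a transcriptional repressor gene (-1.95, SE 0.46, edgeR adjusted p = 0.00261). Of all genes tested between these classes, 3.2% were called lower. *Hes1*, a Notch target gene, had a change of 1.35 (SE 0.41, adjusted p = 0.139) between the sorts, where that of *Bhlhe40* was -1.38 (SE 0.36, adjusted p = 0.0768). Among 5 cell cycle inhibitors *Cdkn1a*, the gene of p21, was the 1 tested, with 1.16 (SE 0.32, adjusted p = 0.0972) between the sorts and 0.85 (SE 0.32, adjusted p = 0.111) between the *Krt10* classes. Of 17 proliferation genes 5 were tested between the sorts and 0 passed. Between the *Krt10* classes 3 of them were tested, and *Hmgb2*, a chromatin protein gene, was lower (-1.48, SE 0.40, adjusted p = 0.0114), beside the same 3.2% of all genes. UMIs of that list were present in 153 of 161 thinned cells, so the list as a whole could not divide the cells with an Id gene from those without. That number came mostly from *Tubb4b*, present in 143 thinned cells. *Mki67* was present in 6, *Top2a* in 8 and *Cdk1* in 4, and Id genes were not compared by these rarer members.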

How the data were processed

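Single cells from 4 C1 chips of 96 wells were analysed. The authors deposited whole-number UMI counts per gene and well, not normalized, made with 5′ STRT chemistry. The submitters' processing notes name mm10 and GRCm38, and the counting steps are not given in the sources used here. Spike-in and reporter rows (109 in number, 2.15% of UMIs) were left out. Wells with at least 2000 UMIs were kept, and each cell was thinned once to 2000 UMIs (seed 1) for shares and rank correlations. *Krt10*-high follows the cut-off of the study's methods, which is at least 6 UMIs at this depth. Counts were summed per library, or per library and class, and entered edgeR 4.0.16 in R 4.3.3 (quasi-likelihood test after filterByExpr and TMM, Benjamini-Hochberg adjustment, threshold 0.05). The procedure was tested on simulated data. Common biological coefficients of variation were 0.224 to 0.248. DESeq2 1.42.0 gave alternatives, beside other UMI minima, filters, *Krt10* cut-offs, thinning draws, left-out libraries and cells, and the run as a block. Doublets were not called, and leaving out the 5% of cells with the most UMIs was an alternative. Members and lists were chosen with earlier results of these data known. Named genes are the Id genes, *Id4*, receptors, E proteins, list members past the threshold, and the 3 genes most alike to each member. *Bmp4*, *Smad1*, *Smad4*, *Smad5*, *Sostdc1*, *Hes1* and *Cdkn1a* were named after their values were seen.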

Additional observations from a re-analysis of the deposited data

Results flagged for a closer look

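The effect of the sort on *Id3* took opposite directions in the 2 runs. Tom+ minus Tom- was -2.71 UMIs per 10000 in run 1 (1.21 against 3.92) and 1.20 in run 2 (4.62 against 3.41). With 1 library per sort and run, this difference was not tested.

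Id transcripts were also counted in the 54 wells below the minimum of 2000 UMIs, which entered no comparison. These wells held 14 UMIs of *Id1*, 4 of *Id2* and 8 of *Id3* among 30056 gene UMIs, or 4.66, 1.33 and 2.66 per 10000, each above the 0.998 per 10000 that 3 counts give.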

How the results depend on the processing

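No Id gene passed the adjusted threshold under any alternative. *Id1* between the sorts stayed between 0.79 and 1.54 over 14 alternatives, with adjusted p from 0.0535 (spike-in UMIs as library sizes) to 0.998, and between the *Krt10* classes between 0.05 and 1.48 over 15. Spike-in sizes moved the median of all genes to 0.50, *Id3* to 0.23 and the calls between the sorts from 38 (26 higher, 12 lower) to 61 (59 higher, 2 lower). This alternative, the left-out libraries for the test of class by sort and both alternatives for immediate early UMIs were added after the data were seen. The number tags were not shown to pair libraries (r = 0.131 over genes, 2 pairs). Counting noise in genes with few UMIs pulls this r toward 0, so it cannot settle whether they do. With the run as a replicate block, 116 genes were called between the sorts and 0 among *Krt10*-low cells, and *Id1* was 0.98 (adjusted p = 0.131).

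Other counts of calls that moved by over 1.5 times were 8 between the sorts and 46 between the *Krt10* classes at a minimum of 5000 UMIs, 24 and 57 with thinned sums, and 55 between the classes without a filter, 31 at 1 and 69 at 12 *Krt10* UMIs. Among *Krt10*-low cells the 4 calls became 2 at a minimum of 1000 UMIs, with DESeq2, without a filter and without cells of other markers, and 0 at 5000. Leaving out 1 library gave 27 to 65 calls between the sorts, most without Tom- run 1, 70 to 128 between the classes, fewest without Tom+ run 1, 1 to 3 among *Krt10*-low cells, fewest without Tom+ run 2, where leaving out Tom- run 2 gave 2, and 0 to 22 for class by sort, 0 without either Tom+ library and 22 without Tom- run 1.

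*Id3* reversed without Tom+ run 1 between the sorts (0.37; range -1.63 to 0.37) and between the classes (0.12; -0.44 to 0.12 over the left-out libraries, -1.41 at 12 *Krt10* UMIs), without Tom+ run 2 among *Krt10*-low cells (-0.66; -0.66 to 0.48), and with thinned sums between the classes (0.31). *Id2* by class and sort ranged from -4.93 to 3.41, positive without Tom- run 1. The share difference of *Id3* was 9.73 points without Tom+ run 1 and 5.63 without Tom- run 1 (-21.4 to 9.73), and that of *Id2* -0.67 at 5000 UMIs. Immediate early UMIs in cells with *Id2* turned to 5.93 over other draws (16 of 20 gave a value) and 5.87 at full depth. The causes were not tested. Where 1 library was left alone in its group, it was assumed to vary like the others.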
